A study of Arabidopsis thaliana with 4 samples.

Results

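A set of 23 genes of Arabidopsis thaliana, each with 20 or more intron entries in the in vivo splicing profile, was examined for how the SHAPE signal at the 5′ splice site (5′ss) varied among introns of one gene and between genes. The genes were chosen by this count alone, with the gene taken from the start of each entry's name. They were 23 of 5959 genes with in vivo entries and held 514 of 24782 entries. After deproteinization the same genes held 378 of 34255 entries, from 22 genes, since no deproteinized entry of AT4G01860 was analysed here. Of the in vivo entries, 343 were also listed after deproteinization.

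The RNA came from nuclei of 5-day-old Col-0 seedlings, grown on plates. In the in vivo condition whole seedlings were treated with 100 mM NAI before the nuclei were isolated, and in the deproteinized condition the nuclei were first lysed and cleared of protein and the RNA was then treated with NAI. Each condition had a control library that received no NAI (DMSO alone in vivo). The biological replicates of a condition had been merged into 1 profile before deposition, so the values carry no replicate error, no test over plants or libraries is possible, and every n counts introns or genes. RNA of all cell types of the seedling is pooled in a profile.

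An intron begins at the 5′ss, where the U1 small nuclear RNA pairs with the last exon bases and the first intron bases. Strong pairing of a 5′ss with other bases can keep U1 from binding, and neighbouring sites in the same pre-mRNA are recognised one by one. NAI modifies the ribose of flexible nucleotides, so a high SHAPE score marks a nucleotide that was mostly unpaired and a low score one that was paired or covered.

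Scores run from 0 to 1 and have no physical unit, and the read depth behind them is unknown. The signal used here is the score of the last exon base (−1) minus the mean score of 38 flanking nucleotides, 18 in the exon and 20 in the intron. A signal above 0 means that −1 was more reactive than its flanks. Some entries begin at the same 5′ss and differ only in where the intron ends: in vivo, 126 of the 514 entries fell on 57 shared sites. At the 53 of these with signals to compare, 20 gave identical signals and the largest range at a site was 0.174. Values are therefore given over entries and also over distinct 5′ss, of which there were 445 in vivo (425 with a usable signal) and 317 after deproteinization (316 usable).

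The sites of AT2G01460, a P-loop nucleoside triphosphate hydrolase gene on chromosome 2, show how far apart 5′ss of one pre-mRNA can lie. It is the gene with most 5′ss measured in both conditions, 24 in all, and the 3 sites with the highest and the 3 with the lowest mean signal are printed, each as the last 10 exon bases and the first 20 intron bases, with −2 and −1 in capitals. Coordinates are those of the intron on TAIR10.1, in the order high to low, and all 6 introns are annotated and on the plus strand.
Site 19, chr2:210632-210727: tatacgtgAGgtctggcttctatttgtaaa
Site 10, chr2:208199-208435: agataggaAGgtaataacccattattctct
Site 12, chr2:209086-209199: agcaatacAGgtaatggggttgcaagaaga
Site 21, chr2:210976-211092: ggaaaggtGAgtatacacattgctattagt
Site 18, chr2:210377-210454: caataaacAAgtaagggttaaaatataatc
Site 2, chr2:206442-206521: gtaaatctAGgtaatccattgtttatgttt

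At site 19 the last exon base had the top score of 1 in both conditions, and the signal was 0.695 in vivo and 0.689 after deproteinization. At site 2, which also ends its exon with AG and has 6 of 9 bases of the 5′ss consensus against 5 of 9 at site 19, the last exon base scored 0 in both conditions and the signal was −0.394 and −0.402. The highest and the lowest site of the gene thus carry the same exon end. Site 21 begins 4 nucleotides after site 20; the gt before its capitals is the intron start of site 20. This pair differed little in vivo (−0.0411 and −0.0225) but gave −0.129 and 0.373 after deproteinization. Over the 24 sites the in vivo signal had a mean of 0.251 ± 0.324 (SD) and ran from −0.394 to 0.734. After deproteinization the mean was 0.186 ± 0.348 and the range −0.478 to 0.689. In all, 14 sites were above their flanks in both conditions, 3 were below in both, and 7 changed side. At 9 sites the conditions differed by less than 0.1. The largest gap was at site 15, with 0.616 in vivo and −0.239 after deproteinization, a difference of −0.855.

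**Figure D1:**
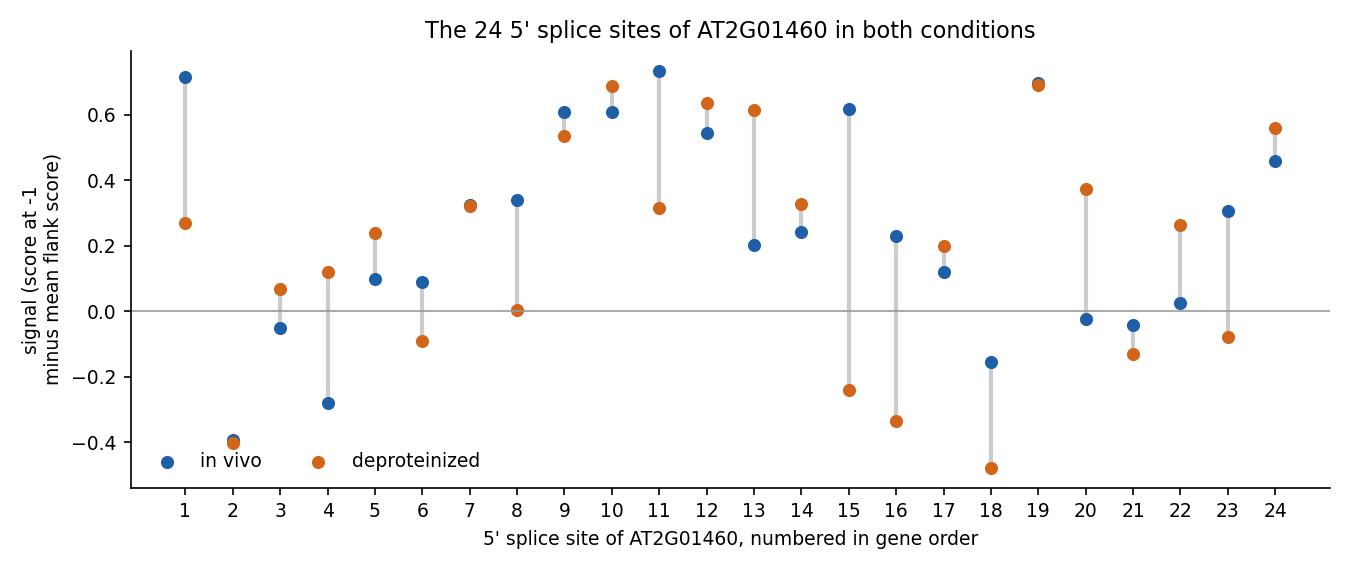
The 24 distinct 5′ss of AT2G01460 in gene order (x axis) with their signal, the score at −1 minus the mean flank score (y axis, no unit), in vivo (blue) and after deproteinization (orange); grey lines join the readings of a site. In vivo sites 5 to 17 all lie above 0 and sites 2 to 4 below it, and sites such as 2, 7 and 19 gave nearly the same value in both conditions while site 15 moved from 0.616 to −0.239.

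The spread among introns of one gene was wide, and close to that in genes outside the set. Over distinct 5′ss the in vivo SD within genes was 0.352, against 0.364 in 305 other genes with 10 or more usable sites. In every one of the 23 genes some in vivo 5′ss lay above their flanks and others below. Such a mixture is likely in any gene with many sites, as 56% of the members' distinct sites lay above their flanks. Over the 21 genes with at least 15 usable sites, the SD among sites of a gene ran from 0.183 to 0.466 with a median of 0.366, and the distance from the lowest to the highest site of a gene ran from 0.745 to 1.30. The same mixture was seen after deproteinization, where all 20 genes with at least 5 sites had sites on both sides of 0.

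**Figure D2:**
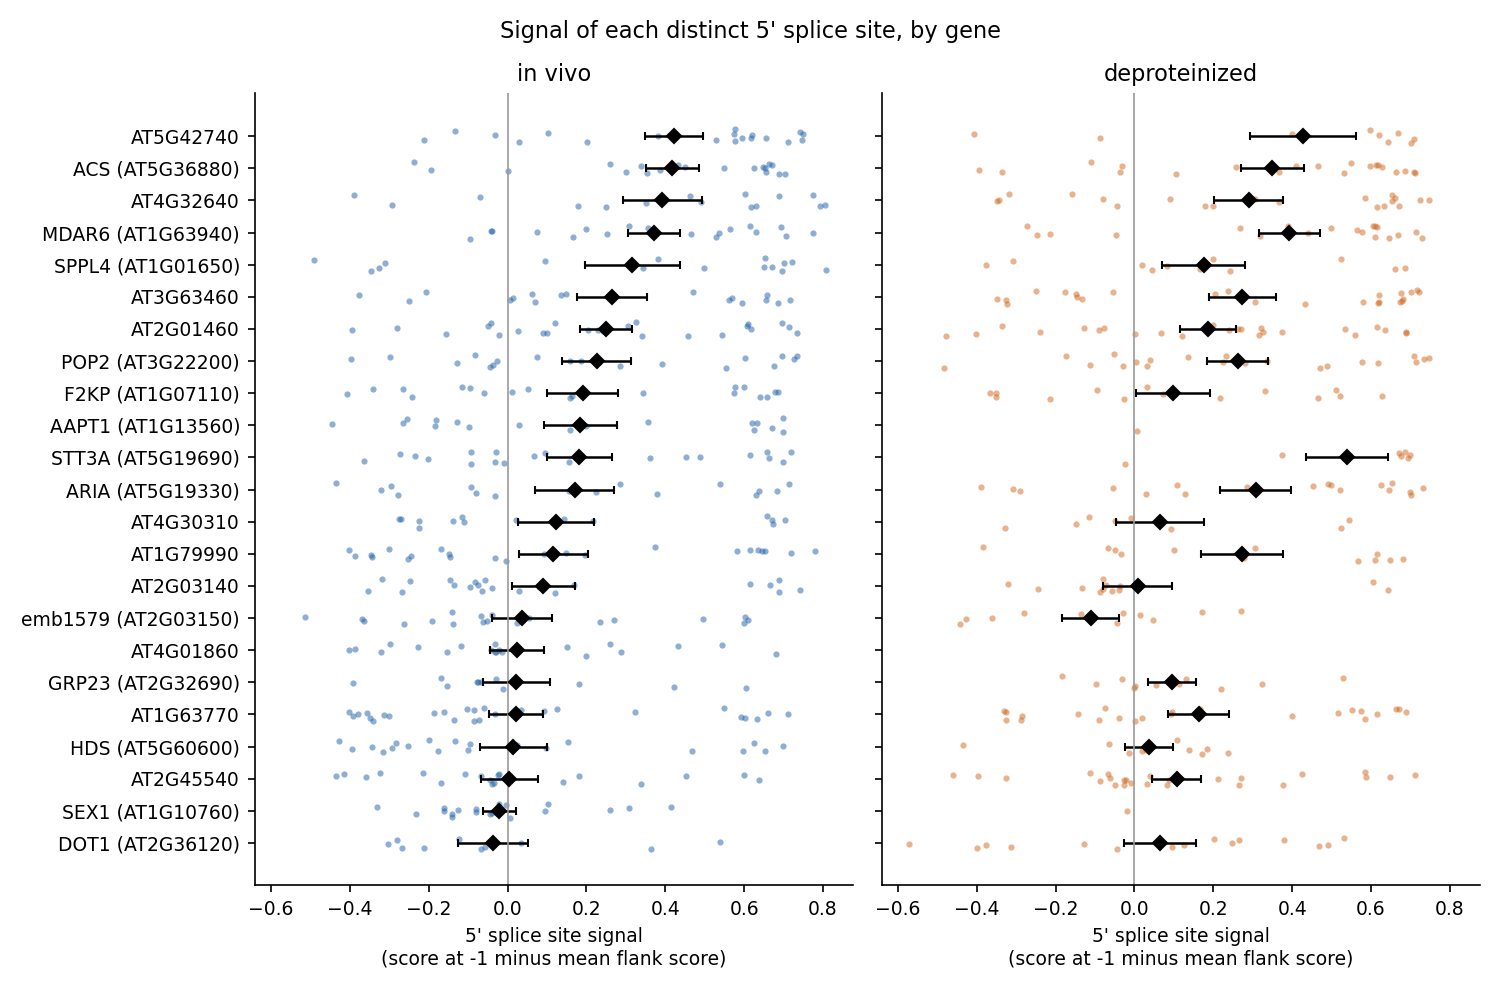
Signal of each distinct 5′ss (points, x axis, no unit) in the 23 genes (y axis, ordered by in vivo mean) in vivo (left) and after deproteinization (right), with the gene mean ± SE over sites as a black diamond where a gene has at least 5 sites. Gene means in vivo run from −0.0371 to 0.423, while in 21 of the 23 genes single sites reach from below −0.2 to above 0.5.

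The widest spread in vivo was that of SPPL4 (AT1G01650), a signal peptide peptidase-like protease that cuts proteins within the membrane. Its 15 sites had an SD of 0.466 and ran from −0.492 through a median of 0.499 to 0.807. In these sites low values were few and deep, as 11 of 15 lay above their flanks. AT1G79990, a coatomer subunit of the vesicles that return proteins from the Golgi to the endoplasmic reticulum, followed with an SD of 0.417 over 23 sites, 11 of them above 0. ARIA (AT5G19330), an arm repeat protein that binds the abscisic acid response factor ABF2, had an SD of 0.399 over 16 sites, 9 of them above 0. In these 2 genes the sites were thus divided almost evenly between the sides.

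The narrowest spread was that of SEX1 (AT1G10760), the glucan, water dikinase that phosphorylates starch before its breakdown. Its 20 sites had an SD of 0.183 and ran from −0.331 through a median of −0.0424 to 0.414. It was also the gene with the largest share of nucleotides at a single recurring intermediate score, with a median of 58% of an entry against 29.5% over the 23 genes, and 7 of its 20 last exon bases held that score. None of the 20 had the top score. The part of the recurring score in the narrow spread was not tested. MDAR6 (AT1G63940), a monodehydroascorbate reductase that regenerates ascorbate, had an SD of 0.281 over 18 sites, and ACS (AT5G36880), which makes acetyl-CoA from acetate, one of 0.291 over 19 sites. Both of these were narrow around a high mean.

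Gene means differed by more than the within-gene spread alone would give. Over all entries the mean of the 23 in vivo gene means was 0.153, with an SD between gene means of 0.157, while the within-gene spread and the numbers of entries alone would give an SD of 0.0775. In a one-way split of the variance the SD within genes was 0.353 (95% interval 0.332 to 0.377) and the SD between genes 0.131. The gene thus accounted for 12.1% of the variance (5.77 to 24.6%), and the remainder lay among introns of the same gene. The intervals treat entries as independent, which entries at a shared 5′ss are not. Over distinct 5′ss the gene accounted for 10.4% (4.38 to 22.6%). After deproteinization, over 20 genes, it accounted for 10.6% of the variance over entries (4.18 to 24.1%) and 8.96% over distinct sites (2.66 to 22.3%).

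In vivo, the part between genes lay in the last exon base and not in the flanks. The gene accounted for 11.4% of the variance of the −1 score in vivo, but for −0.814% of that of the flank mean, an estimate below 0 that stands for no measurable part. Gene means of the flanks ran from 0.316 to 0.371. After deproteinization the gene accounted for 9.47% of the variance of the −1 score and also for 7.13% (1.98 to 18.5%) of that of the flank mean over entries, or 5.56% (0.520 to 16.8%) over distinct sites, so the flanks differed between genes there as well. At the base before it (−2), which also lies in the stretch that pairs with U1, the gene accounted for −0.0798% of the variance of the signal in vivo, and for 5.84% over entries or 1.11% over distinct sites after deproteinization.

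In genes outside the set, which have fewer than 20 in vivo entries but in some cases more deproteinized ones than any member, the estimated share of the gene was smaller. Over distinct sites, 305 other genes with 10 or more usable sites had a mean of 0.190, and the gene accounted for 2.01% of the variance (0.512 to 3.85%). After deproteinization 628 such genes gave 3.14% (2.06 to 4.40%). Over entries the values were 6.99% (5.28 to 9.0%) in vivo and 5.04% (3.98 to 6.23%) after deproteinization, and these intervals overlap those of the 23 genes. The within-gene SD of the other genes, 0.364 in vivo over distinct sites, was close to the 0.352 of the 23 genes. Whether the 23 genes differ from the others was not tested. The genes just outside the rule, 10 genes with 19 entries, had in vivo means from 0.0352 to 0.452 with a median of 0.259, and the 8 genes with exactly 20 entries had means from −0.0204 to 0.425 with a median of 0.210.

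**Figure D3:**
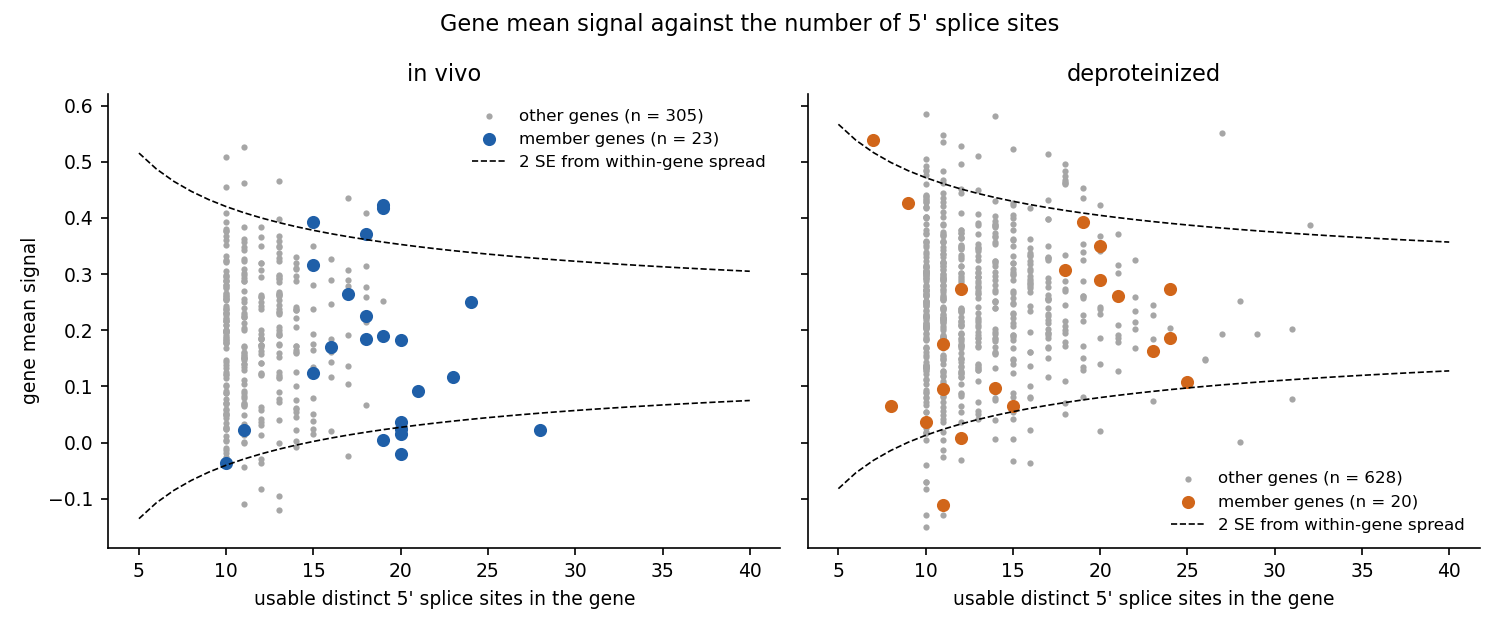
Gene mean signal (y axis, no unit) against the number of usable distinct 5′ss of the gene (x axis) for the member genes (coloured) and other genes with 10 or more sites (grey), in vivo (left, 23 and 305 genes) and after deproteinization (right, 20 and 628 genes). Dashed lines mark 2 SE around the mean of the other genes as their within-gene SD alone would give. In vivo 4 member genes, AT5G42740 and ACS among them, lie above the upper line and 5, SEX1 among them, below the lower one. The other genes outside the lines were not counted, so these numbers do not set the members apart.

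The highest in vivo mean was that of AT5G42740, a sugar isomerase, with 0.423 ± 0.0739 (SE over 19 sites). Its sites ran from −0.211 through a median of 0.576 to 0.750, and 16 of 19 lay above their flanks. ACS followed with 0.418 ± 0.0669 and 17 of 19 sites above, AT4G32640, a Sec23/Sec24 protein of the vesicle coat that leaves the endoplasmic reticulum, with 0.393 ± 0.0998 over 15 sites, MDAR6 with 0.372 ± 0.0662 over 18 sites and SPPL4 with 0.316 ± 0.12 over 15 sites. In these genes most sites were high, and a few low sites remained in each.

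The lowest mean among genes with at least 15 usable sites was that of SEX1 at −0.0204 ± 0.0408, with 6 of 20 sites above their flanks. AT2G45540, a WD-40 and beige-like protein gene, had 0.0050 ± 0.0731 over 19 sites. HDS (AT5G60600), an enzyme of the plastid pathway to isoprenoids, had 0.0152 ± 0.0858 over 20 sites. AT1G63770, the M1 peptidase gene with most entries (30), had 0.0216 ± 0.0691 over 28 sites, of which 11 lay above their flanks, and AT4G01860, another WD-40 gene, had 0.0240 ± 0.0678 over 20 sites. Single sites in these genes still reached 0.712 in AT1G63770 and 0.698 in HDS, so a gene with a low mean could still hold high sites, whereas the highest site of SEX1 was at 0.414.

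The 2 highest and the 2 lowest in vivo sites of AT5G42740 and of SEX1 are printed next, high to low. These genes had the highest and the lowest mean among those with at least 15 usable sites. The bases are laid out as before, AT5G42740 is on the plus strand and SEX1 on the minus strand, and all 8 introns are annotated.
AT5G42740 site 14, chr5:17139316-17139433: cattcaacAGgtatgtgaactgggtttccc
AT5G42740 site 16, chr5:17139742-17139833: taccttaaGGgtaggcttccattcctgcta
AT5G42740 site 7, chr5:17137678-17137768: actactctAGgttcatgctcaaacctatca
AT5G42740 site 2, chr5:17136543-17136625: cttggcaaAGgtgagggtagatgtttattg
SEX1 site 13, chr1:3584836-3584977: tggacctgAGgttagtagatttattcatcg
SEX1 site 9, chr1:3586506-3586686: ttaagccaAGgtacagttcaaataatgtga
SEX1 site 8, chr1:3586822-3587071: tcatgcatCGgtcagttttatgctcaatca
SEX1 site 20, chr1:3581415-3581515: tctacgacAGgtaatgtgaacataaatcaa

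All 8 exons end in G, and in both genes the high and the low sites include some with AG before the intron. The sites of AT5G42740 gave 0.750, 0.746, −0.133 and −0.211, in the order printed. The 2 sites with most matches to the consensus, 8 of 9 bases each, were the highest (site 14) and the lowest (site 2). Site 7 is the one of these that was also measured after deproteinization, and there its last exon base had the top score and its signal was 0.708. The sites of SEX1 gave 0.414, 0.308, −0.232 and −0.331.

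AT5G42740 and SEX1 differed by 0.443 with an SE of 0.0844, which covers the spread over sites but none between plants. Both were picked as the extremes of these same means among genes with at least 15 usable sites. The SE does not allow for that choice. Within the order of all 23 genes, none of the 22 pairs of neighbours differed by as much as 1 SE of their difference. The largest gap between neighbours was 0.0555. For 10 of the 23 genes the mean exceeded 2 SE, and for the other 13 it lay within 2 SE of 0. This was not counted over genes outside the set. Among the 305 other genes, 6 had a higher mean than AT5G42740 and 9 a lower one than SEX1.

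The remaining members with a clear annotation fell between these ends. F2KP (AT1G07110), the enzyme that makes and breaks down the sugar signal fructose bisphosphate, had a mean of 0.190 ± 0.0891 over 19 sites, POP2 (AT3G22200), the transaminase that removes the signalling molecule GABA, 0.226 ± 0.0872 over 18, and AAPT1 (AT1G13560), an aminoalcoholphosphotransferase of phospholipid synthesis, 0.185 ± 0.0929 over 18. STT3A (AT5G19690), a subunit of the transferase that attaches sugar chains to proteins, had 0.183 ± 0.0815 over 20 sites. AT2G03140, a hydrolase gene, had 0.0912 ± 0.0790 over 21 sites. Its neighbour on chromosome 2, emb1579 (AT2G03150), had 0.0366 ± 0.0750 over 20.

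Sorted by words in their product names, 3 genes encode trafficking proteins, 3 kinases, 1 falls under synthases (HDS) and 16 under none of the groups. Over entries, the trafficking genes AT1G79990, AT3G63460 (a WD-40 gene also named SEC31B) and AT4G32640 had in vivo means of 0.103, 0.239 and 0.430. The kinase genes SEX1, AT4G30310 (a carbohydrate kinase) and F2KP had −0.0204, 0.10 and 0.154. The median of all 23 genes was 0.154, and the ranges of these groups overlap.

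The share of introns above their flanks gives the same picture without the size of the signal. In vivo 262 of 489 usable entries had a signal above 0, which is 53.6% (Wilson 95% interval 49.1 to 58%), where the whole table had 60.8%. Over distinct sites it was 238 of 425 (56%, 51.2 to 60.6%) against 60.3%. After deproteinization 232 of 377 entries (61.5%, 56.5 to 66.3%) lay above 0 against 67.5% of the table, and 204 of 316 distinct sites (64.6%, 59.1 to 69.6%) against 67.3%. The members were below the whole table over entries and nearer to it over distinct sites. The lower share over entries rests in part on GRP23 and DOT1, a pair of glycine-rich protein genes described last: without them it was 56.6% (52 to 61.1%) in vivo and 63.6% (58.2 to 68.5%) after deproteinization, intervals that contain the table's shares. The intervals cover counting error over introns only.

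The signals of single introns were split between high and low values. In vivo the last exon base had the top score in 123 of 489 entries (25.2%) and a score of 0 in 73 (14.9%), against 27% and 9.76% in the whole table. A score of at least 0.6 at −1 was found in 180 entries (36.8%, 32.7 to 41.2%), against 42.2% of the table. The middle 50% of the entries had signals from −0.145 to 0.564, around a median of 0.0516. Over distinct sites a −1 score of at least 0.6 was found in 162 of 425 (38.1%, 33.6 to 42.8%), against 41.5% of all distinct sites. After deproteinization it was found in 156 of 377 entries (41.4%, 36.5 to 46.4%) against 49.7%, and in 141 of 316 distinct sites (44.6%, 39.2 to 50.1%) against 49.1%. High last exon bases were thus fewer in the members than in the whole table over entries of both conditions, and by less over distinct sites. Here too the difference over entries rests in part on GRP23 and DOT1, with 4 of 37 in vivo entries and 10 of 45 deproteinized ones. Without this pair the in vivo share was 38.9% (34.6 to 43.5%), an interval that contains the table's 42.2%. After deproteinization 146 of 332 entries remained, and the interval of 38.7 to 49.4% lay just below the table's 49.7%.

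**Figure D4:**
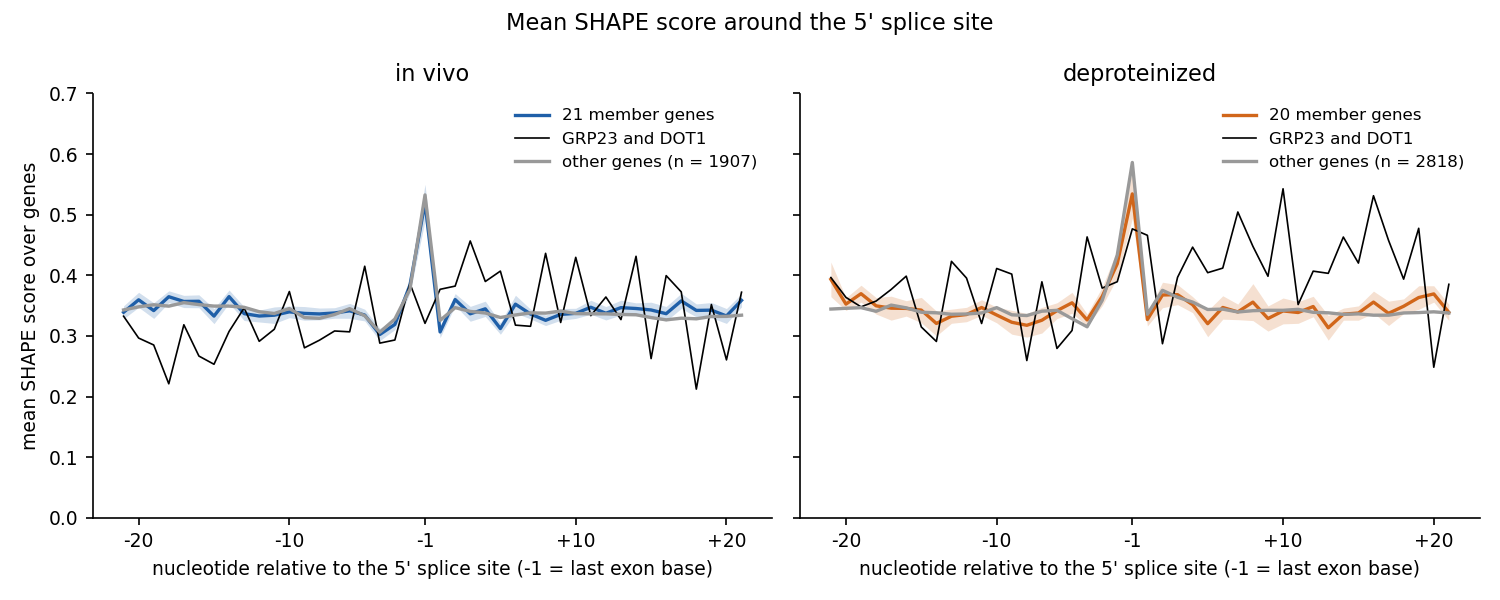
Mean SHAPE score over genes (y axis, no unit) at each nucleotide around the 5′ss (x axis, −1 is the last exon base) for the members without GRP23 and DOT1 (coloured, 21 genes in vivo and 20 after deproteinization, of which 2 have 1 entry), for GRP23 and DOT1 (thin black) and for other genes with 5 or more usable entries (grey), in vivo (left) and after deproteinization (right); bands are ± SE over genes, and none is drawn for the pair of genes. The 21 genes peak at −1 with a mean score of 0.520 in vivo, close to 0.533 in the other genes, while GRP23 and DOT1 have 0.321 there.

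The deproteinized libraries are a separate set, so they give a second reading of the same 5′ss. Over the 270 distinct sites measured in both conditions, the signals correlated with Pearson's r = 0.536 (Spearman's rho = 0.538) across introns of 21 genes, which share libraries within a condition and are no independent replicates. The means of the 20 genes with at least 5 such sites correlated with r = 0.763 (rho = 0.734; r = 0.812 over entries), and the deviations of sites from the mean of their own gene with r = 0.492 over 269 sites. Differences among introns of one gene were thus in part shared by the conditions. The gene means average these same sites in both conditions. Their r therefore does not show by itself that differences between genes were shared beyond those of single sites. Over other genes, r was 0.450 over 12870 sites, 0.434 over 911 gene means and 0.485 within genes. Those gene means rest on fewer sites each, and the difference in r was not tested. Of the 270 sites, 130 were above their flanks in both conditions and 67 below in both, so 73% kept their side. This is close to the 70.4% over the 12870 sites of other genes.

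**Figure D5:**
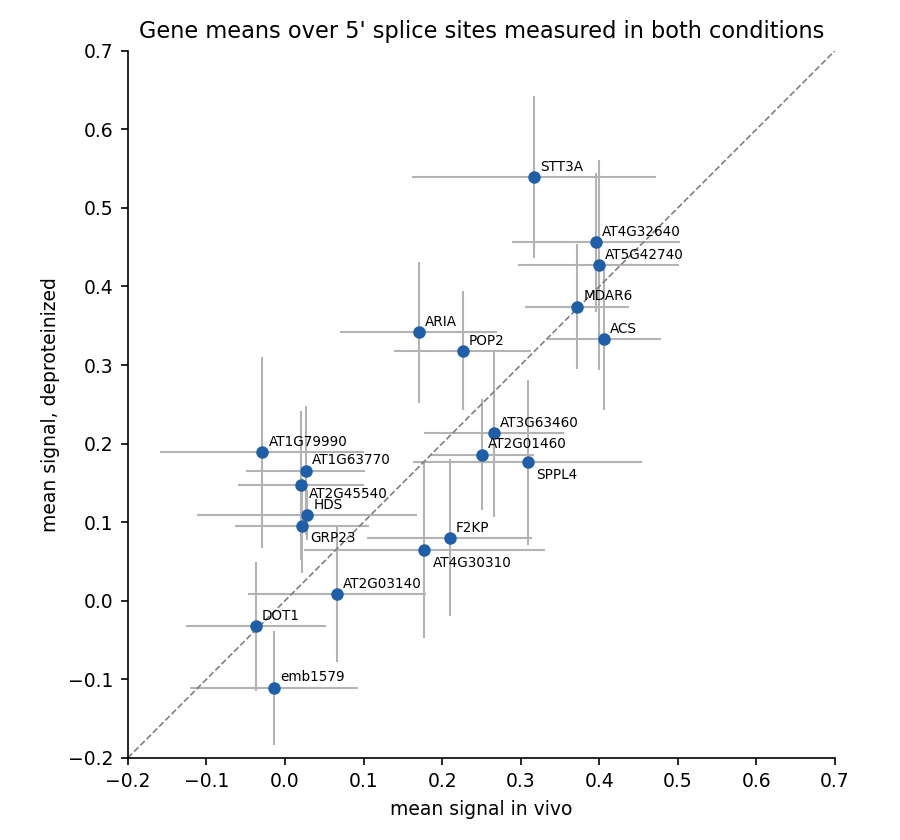
Mean signal of a gene in vivo (x axis) against its mean after deproteinization (y axis), over distinct 5′ss measured in both conditions, for the 20 genes with at least 5 such sites; bars are ± SE over sites and the dashed line marks equal values. Genes high in vivo, such as ACS and AT4G32640, were high in both, and 12 of the 20 genes lie above the line. Of the other genes, which are not drawn, 564 of 911 were higher after deproteinization.

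Gene means differed little between the conditions on average, while single genes differed more and in both directions. The mean was higher after deproteinization in 12 of 20 genes, and the mean difference was 0.0250 ± 0.114 (SD over genes). Of the other genes with at least 5 shared sites, 564 of 911 were higher, with a mean difference of 0.0443 ± 0.163. For comparison, the in vivo means of the 20 member genes had an SD of 0.158. Among genes with at least 10 shared sites, ARIA had the largest positive difference, with 0.170 in vivo and 0.342 after deproteinization over 16 sites, a difference of 0.172 ± 0.0909 (SE over sites). AT1G63770 went from 0.0263 to 0.166 over 22 sites, a difference of 0.139 ± 0.0497, and AT2G45540 from 0.0200 to 0.147 over 14 sites, a difference of 0.127 ± 0.0658. Of these 3, AT1G63770 alone differed by more than 2 SE, an SE that covers the spread over its sites and not that between libraries.

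At the other end SPPL4 had a mean of 0.309 in vivo and 0.176 after deproteinization over 11 sites, a difference of −0.133 ± 0.115. F2KP had 0.210 and 0.0801 over 13 sites, a difference of −0.130 ± 0.121. For emb1579 the means were −0.0141 and −0.111 over 11 sites, a difference of −0.0966 ± 0.0858. None of these 3 differences reached 2 SE. Of the genes with 5 to 9 shared sites, AT1G79990 and STT3A had the largest differences, 0.217 ± 0.141 over 9 sites and 0.223 ± 0.137 over 7. The genes were picked as the extremes of 20, so their order is a description.

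Features of an intron that had no part in the choice of genes went with differences smaller than the spread among sites. The base at −1 was G in 333 of the 425 usable in vivo sites, with a mean signal of 0.169 ± 0.372 (SD), against 0.142 ± 0.367 at the other 92. Within genes the difference was −0.0010 on average, and G was the higher in 10 of 21 genes. By matches to the 9-base consensus the in vivo means were 0.137 ± 0.341 with 5 or fewer (n = 100), 0.129 ± 0.374 with 6 (n = 141), 0.222 ± 0.382 with 7 (n = 136) and 0.150 ± 0.381 with 8 or 9 (n = 48), with no steady order. After deproteinization they were 0.176 (n = 89), 0.207 (n = 93), 0.209 (n = 99) and 0.260 (n = 35). Relative to the mean of their gene these classes lay at −0.0021, 0.0059, −0.0042 and 0.0016. Without GRP23 and DOT1 the means were 0.214 (n = 64), 0.210 (n = 92), 0.209 (n = 99) and 0.260 (n = 35). The base at −2 went with a wider in vivo difference: sites with G there had 0.0619 ± 0.365 (n = 33), at −0.123 relative to the mean of their gene, and sites with C 0.192 ± 0.343 (n = 51), at 0.0487. After deproteinization these bases had 0.221 (n = 28) and 0.229 (n = 40). All these differences were smaller than the SD among single sites. That SD is wider than the error of a class mean, so it does not measure whether the classes differ, and no difference was tested.

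The means by position in the gene had no common order in the 2 conditions. In vivo the mean was 0.144 in the first of 4 equal parts of a gene's sites, 0.143 in the next, 0.194 in the third and 0.170 in the last. After deproteinization it was 0.215, 0.273, 0.162 and 0.177. Neighbouring 5′ss of a gene showed no clear likeness beyond their gene mean. Their deviations correlated with r = −0.0172 over 402 pairs in vivo and r = 0.0113 over 294 pairs after deproteinization. Deviations from a shared gene mean tend to correlate slightly negatively even for unrelated sites, and no interval was computed.

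Signals also differed by intron length. Introns under 90 nt had a mean of 0.0851 ± 0.326 (n = 128), those from 90 to under 150 nt 0.206 ± 0.372 (n = 168) and longer ones 0.185 ± 0.401 (n = 129). Relative to the mean of their own gene the short introns lay at −0.0567. After deproteinization the values were 0.160 (n = 85), 0.266 (n = 117) and 0.176 (n = 114), with the short introns at −0.0175 relative to their gene. By mean signal the middle class was highest and the short introns lowest in both conditions. In vivo the short introns were also lowest relative to their gene and in the share above their flanks. After deproteinization they were not: the long introns lay at −0.0184 relative to their gene, close to the short ones. The share above the flanks was there largest in the short introns, with 70.6%, against 68.4% in the middle class and 56.1% in the long introns. These classes were compared without a test.

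The share of nucleotides at the recurring score differed between genes far more than the signal did, the gene accounting for 32.5% of its variance in vivo and 37.9% after deproteinization. Across the 23 genes the in vivo mean signal correlated with it by r = −0.198, and by r = −0.0683 across 20 genes after deproteinization. Its part in the gene means was not tested. The order of the genes was nearly the same when this score was left out (rho = 0.970 over 23 genes), when scores of 0 were left out (rho = 0.946) or when the −1 score was ranked among its flanks (rho = 0.978).

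Among the members, GRP23 (AT2G32690) and DOT1 (AT2G36120) stood apart, and they were singled out after their values had been seen. Both encode glycine-rich proteins, whose coding sequence consists of many near-identical glycine codon repeats. Their genes are 1076 and 1324 nt long, against 3606 to 15418 nt in the other 21, and yet they held 23 and 22 in vivo entries. All 45 of these entries lie inside an annotated coding exon, and 4 of them are annotated introns, all in GRP23, against 408 of 469 entries in the other members. The lengths of 43 of the 45 (95.6%) are multiples of 3, against 33.9% in the other members, and their median GC content was 65% against 34.3%. The 5′ss also lacked the usual intron bases: A stood at +3 in 1 of 26 distinct sites and G at +5 in 1 of 26, against 265 and 212 of 419.

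The ends of these entries often repeat each other. A direct repeat of 5 or more bases spans both ends in 30 of the 45 entries (66.7%), against 24 of 469 (5.12%) in the other members, and the longest measured 37 bases. The bases at the ends of 2 entries are printed, 15 on each side of the 5′ss and of the 3′ss, with the repeated stretch in capitals as far as it lies within them. The repeat is 12 bases long in GRP23 (annotated intron, minus strand) and 23 in DOT1 (no annotated intron, plus strand).
GRP23, chr2:13864050-13864136, 5′ss: gtttAGGAGGAGGAGGtggattgggtggtg
GRP23, chr2:13864050-13864136, 3′ss: ttggAGGAGGAGGAGGctttggcggtggag
DOT1, chr2:15165658-15165783, 5′ss: gatctggtTACGGAGGTGGAAGCGGTGAAG
DOT1, chr2:15165658-15165783, 3′ss: gaggaggcTACGGAGGTGGAAGCGGTGAAG

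The DOT1 entry printed here had a signal of −0.267 in vivo and −0.314 after deproteinization, and the GRP23 entry −0.0103 and −0.0012. Over entries, GRP23 had an in vivo mean of −0.0714 and DOT1 of −0.103, the lowest of the 23 genes. After deproteinization the means were 0.0080 and 0.0035. Over distinct 5′ss, 11 in GRP23 and 10 usable in DOT1, the in vivo means were 0.0216 ± 0.0850 (SE) and −0.0371 ± 0.0894, so the sign for GRP23 depends on whether shared sites are counted once. The deproteinized means over distinct 5′ss were 0.0957 and 0.0647. Of the 37 usable in vivo entries 6 had a signal above 0 (16.2%, 7.65 to 31.1%), and of the 45 deproteinized entries 21 (46.7%, 32.9 to 60.9%). In DOT1 37.3% of the in vivo scores were missing and 14 of 22 entries were usable, whereas the median over genes was 3.35% missing. Whether these entries are introns was not tested. Without these 2 genes the mean of gene means over entries was 0.176 in vivo and the gene accounted for 9.65% of the variance, and 56.6% of the entries lay above their flanks.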

How the data were processed

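The deposited splicing tables of both conditions were analysed. Per the study's methods, the authors mapped reads, merged biological replicates, counted RT-stops with and without NAI and normalized them into SHAPE reactivities. The submitters' processing notes name FastQC 0.11.5, cutadapt 1.14, HISAT2 2.1.0 and TAIR10. The deposited values are scores from 0 to 1 that the authors scaled, and the formula is not given in the sources used here. RT-stop counts were not at hand, so depth and counting error are unknown. The 2 polyadenylation tables were not used.

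Nucleotide 50 of an entry was taken as −1, and nucleotides 31 to 48 and 51 to 70 as flanks. Missing scores were left out. For distinct 5′ss, the entry with fewest missing scores was kept. Introns were placed on TAIR10.1, which shares TAIR10 coordinates, and names, annotation and sequences came from RefSeq. Consensus matches were counted over 9 bases. The variance was split by a one-way random model with F-based intervals, and shares of introns have Wilson intervals. The model was tested on simulated independent normal values with known shares. Scores piled up at the top, lowest or recurring value, and entries at shared 5′ss, were not simulated. No difference between conditions or genes was tested, since each condition is 1 profile. Genes were named by number of entries, by the highest and lowest means and SDs among genes with at least 15 usable 5′ss, by the difference between conditions over at least 10 shared 5′ss, and by product group. The members, lists and features were chosen with earlier results of these data known. Python 3.11.15, NumPy 2.4.6, pandas 2.3.3, SciPy 1.17.1 and Matplotlib 3.10.9 were used.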

Additional observations from a re-analysis of the deposited data

How the results depend on the processing

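No mean signal, share of variance or correlation changed sign when recomputed, whereas SDs, percents above the flanks and ranks cannot change sign. Of 78 recomputed values of 10 results, 74 stayed within a set range of the value reported. The range was the 95% interval or, for mean signals, the SD over genes. That SD is wide: the in vivo mean of gene means, 0.153, was 0.0516 with medians over introns and genes, and the 1 gene with 30 or more entries had 0.0313. The alternatives were scores of 0 or the recurring score left out, flanks of 10 nt, 1 entry per 5′ss, medians, genes with 30 or more entries or 20 or more distinct 5′ss, complete entries, G before GU, and ranks. Chosen after the data were seen were leaving out the 2 glycine-rich genes and keeping RefSeq introns only. With scores of 0 left out the within-gene SD fell from 0.353 to 0.319 in vivo and from 0.346 to 0.294 after deproteinization, since the lowest −1 scores were removed. As a rank among the flanks, a scale from 0 to 1, the mean of gene means was 0.593 in vivo and 0.647 after deproteinization. The share of variance between genes ran from 9.65 to 14.8% in vivo and from 5.35 to 16.8% after deproteinization. No spread between genes could be given for that 1 gene or for medians. No paired analysis was possible because the labels carry no replicate numbers and replicates were merged, and no replicate could be left out. Unknown depth limits all values.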
